A study of Mus musculus with 6 samples.

Results

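Voltage-gated sodium channel, Kv potassium channel and HCN channel genes were examined in bulk RNA sequencing of the mouse inner ear. The members were all protein-coding genes of the deposited count table whose symbols belong to the Scn alpha and beta, Kcna, Kcnb, Kcnc, Kcnd or Hcn series. The rule found 35 genes of 55401 in the table, which were 14 sodium channel genes, 17 Kv genes and 4 HCN genes. Counts and medians cover all of them, and values are given one by one for 30. The rule uses gene symbols and no measured value. Wild-type mice (WT) and mice with the genotype Pou3f4y/- (Pou3f4 KO, below KO) gave 3 libraries each. The genotype is written as hemizygous for the X-linked gene Pou3f4, which encodes a POU-domain transcription factor of the otic mesenchyme. Per the labels the tissue was inner ear cells, the cell type was every cell present, and a further entry reads interstitial cells. No allele, strain, age, sex, dissection or pooling is named. The comparison was set up to look into the pigmentation of the mutant ear.

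These channels carry the fast electrical signals of nerve and muscle. Sodium channel alpha subunits form the pore that starts the action potential, and beta subunits set its gating and anchor it in the membrane. Kv channels end the action potential and set firing rate, and HCN channels open on hyperpolarisation and carry the pacemaker-like current that brings a cell back towards threshold. In the ear they serve the spiral and vestibular ganglion neurons, whose myelinated axons gather sodium channels at the nodes of Ranvier and Kv1 channels beside them, and the hair cells.

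Library totals ranged from 18409409 to 23323953 counts. Pou3f4 held 1044 to 2233 counts in the WT libraries and 28 to 45 in the KO libraries, so it matched the label in every library. Reads of Y-linked genes were found in WT replicate 3 and KO replicate 1 only. The other 4 libraries held none and had 9143 to 15783 Xist counts, among them 2 KO libraries whose genotype is written with a Y. Markers of neurons, Schwann cells and hair cells were found in every library. The WT libraries differed among themselves. All 17 skeletal muscle markers were detected in every library, and their summed level was 7132, 161 and 11207 CPM in WT replicates 1 to 3 and 33.8, 856 and 46.8 CPM in KO replicates 1 to 3. CPM are counts scaled to 1000000 per library with the trimmed mean of M-values (TMM). The mean of 11 hair cell markers was lowest in WT replicate 1, at 1.67 log2 CPM, and lay between 2.45 and 2.91 elsewhere.

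Of the 35 channel genes, 33 passed the filter on low counts, and Kcna6 alone was called changed between the genotypes. It was lower in KO. That is 1 of 33 lower and 0 higher, against 0.183% of all 19687 tested genes called lower and 0.213% called higher (edgeR quasi-likelihood test, Benjamini-Hochberg adjusted p under 0.05 over all genes tested). DESeq2 and limma-voom also called 0 members higher, and 0 were higher at an unadjusted p under 0.05 with edgeR, against 8.71% of all genes. Most of the other channel genes lay lower in KO without passing. The fitted change was below 0 for 32 of 33, against 51.0% of all genes, and the median log2 fold change was -0.61 against -0.01 over all genes tested. An unadjusted p under 0.05 in the lower direction was found for 19 of 33, against 10.9% of all genes. Among the 33 tested members, every KO library lay below every WT library in 13, as in 12.7% of all genes tested, and above in 1, Scn3a, as in 15.0%. Separate animals are not mentioned in the labels, so p-values measure only the spread between these libraries, part of it possibly technical and part of it between the sexes described above. In bulk tissue, fewer cells of a type and less RNA per cell cannot be told apart.

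**Figure D1:**
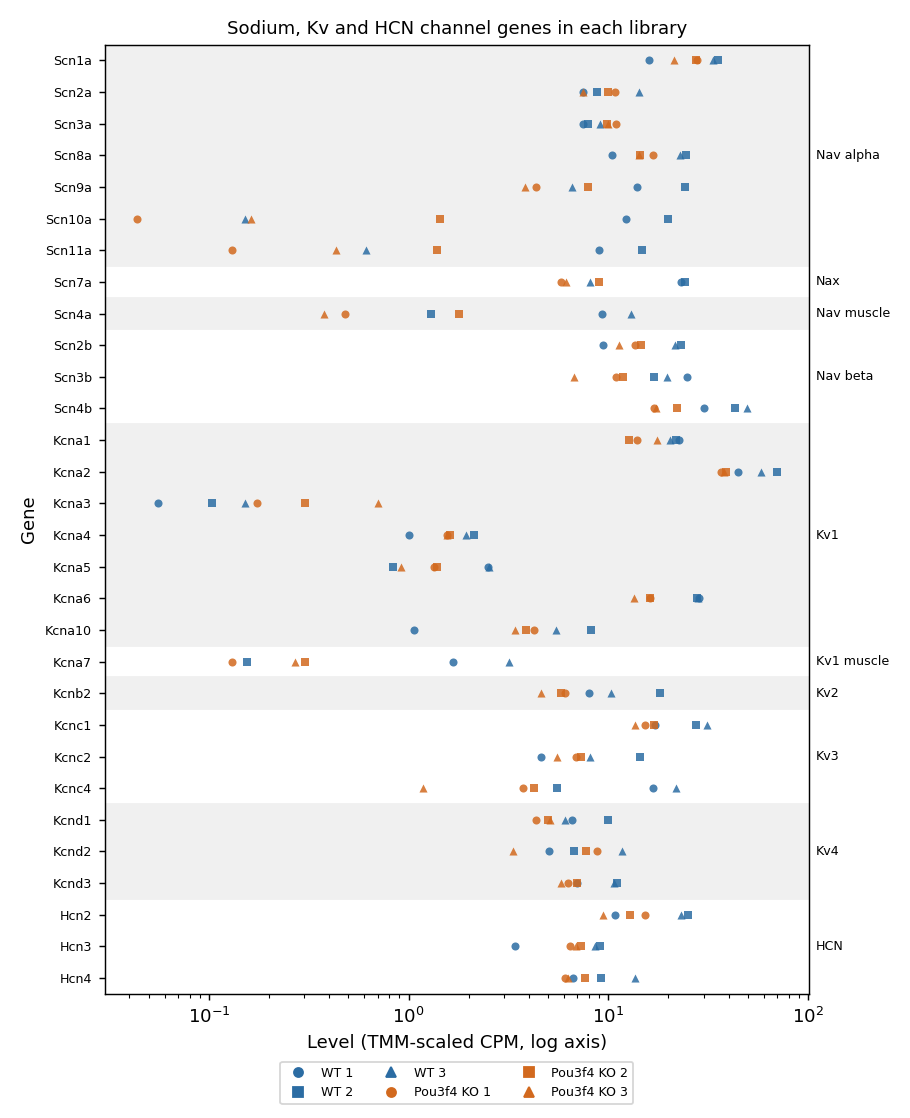
Level of 30 channel genes (vertical axis, grouped by family) in each library, in TMM-scaled CPM on a log axis. Blue points are the 3 WT and orange points the 3 KO libraries, with a symbol for each replicate number. Kcna6 shows WT points at 27.7 to 28.6 CPM and KO points at 13.5 to 16.2 CPM, and Scn10a spans 0.0434 to 19.8 CPM.

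Neuron and Schwann cell markers lay lower in KO beside these genes. The mean of 14 neuron markers ran from 6.11 to 6.8 log2 CPM over the WT libraries and from 5.25 to 5.83 over the KO libraries, with all 14 detected in every library. Their summed level was 1330 to 2759 CPM in WT and 992 to 1362 CPM in KO. The median log2 fold change of the neuron markers was -0.80 (14 tested, 1 called lower) and that of the Schwann cell markers -0.89 (11 tested, 4 called lower). The 12 Schwann cell markers summed to 4444 to 8118 CPM in WT and 3116 to 3546 CPM in KO. Hair cell markers had a median of -0.04 (11 tested, 6 below 0). Lower values were not particular to nerve markers. Markers of smooth muscle and pericytes had a median of -1.69 (5 tested, 5 below 0). Skeletal muscle markers had -3.96 (17 tested, 17 below 0) and cardiac muscle markers -0.37 (4 tested, 4 below 0). Markers of brain cells outside the ear had -0.55 (10 tested, 9 below 0) and melanocyte markers 0.35 (5 tested, 0 below 0). None of the genes in these other lists was called. The part of these markers in the channel gene values was not tested.

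Channel genes were also set against the neuron markers of the same library, as log2(CPM + 0.5) minus the mean of the 14 markers. On this scale Scn1a, Scn3a, Kcna4, Kcnc2 and Hcn3 had every KO library above every WT library, 5 of 33, where 63.7% of all genes tested did so. The groups of the other 28 overlapped. No member had every KO library below every WT library, a pattern found in only 0.102% of all genes, so that count is at the background. For Kcna6 this ratio was -1.25, -1.98 and -1.36 over the WT libraries, and over the KO libraries it was -1.56, -1.77 and -1.45, so the groups overlapped on this scale. For the beta subunit Scn4b it was -1.18, -1.36 and -0.56 in WT and -1.49, -1.34 and -1.10 in KO, which overlapped as well.

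**Figure D2:**
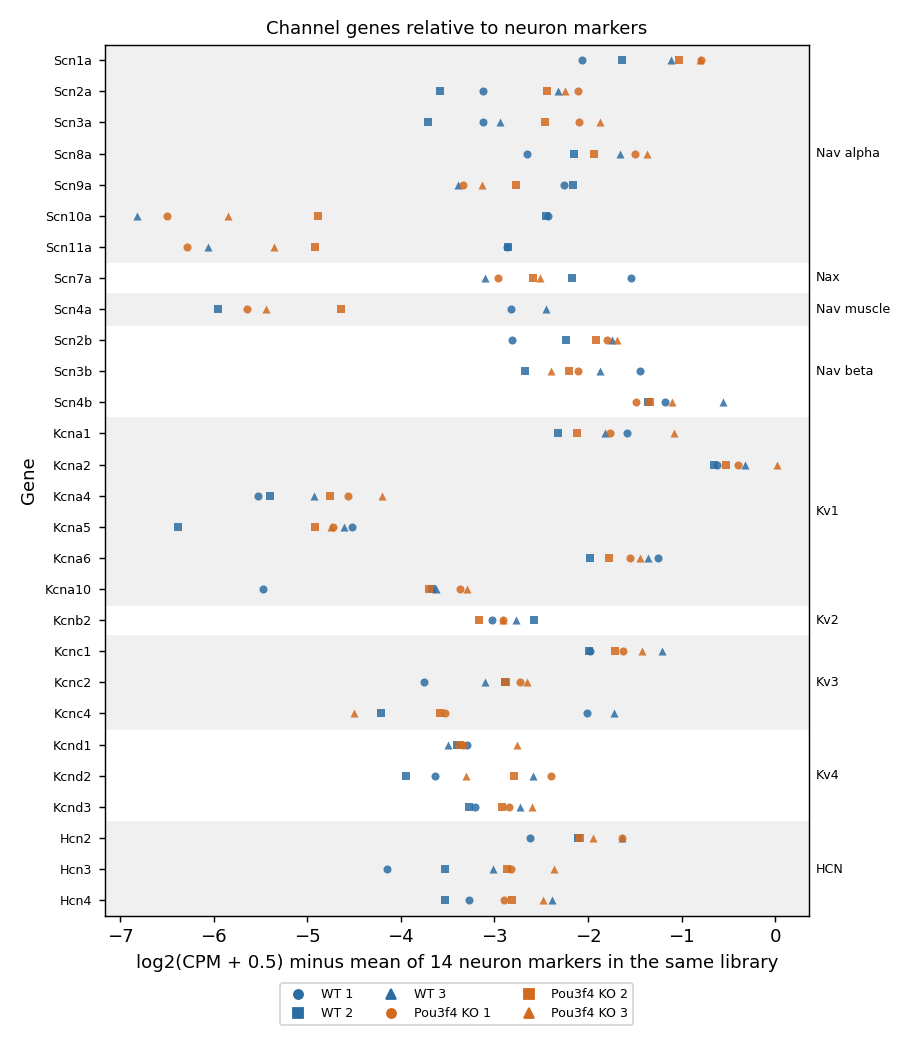
Level of 28 tested channel genes relative to neuron markers, as log2(CPM + 0.5) minus the mean of 14 neuron markers in the same library (horizontal axis), with genes on the vertical axis. Blue points are WT and orange points KO libraries and symbols mark replicates. The Kcna6 points of the groups interleave between -1.98 and -1.25.

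Kcna6 encodes a Kv1 alpha subunit of neurons, which assembles with other Kv1 subunits into low-threshold potassium channels. It lies on chromosome 6 (ENSMUSG00000038077, mm10, 126708329 to 126740674, minus strand). Its level was 28.6, 27.7 and 28.3 CPM in WT replicates 1 to 3 and 16.2, 16.2 and 13.5 CPM in KO replicates 1 to 3. The WT libraries lay closer together than for most members, and the groups did not overlap. Kcna6 fell 1.84-fold, from 28.2 ± 0.470 to 15.3 ± 1.54 CPM (SD, n = 3 each), which is -0.88 on the log2 scale (SE 0.11, edgeR adjusted p = 0.049). The log2 fold change stayed between -0.92 and -0.80 over 16 fits that differed in scaling, filter, tool, covariates or the library left out, while the adjusted p ran from 2.33e-08 to 0.357 and passed in 10 of them. The adjusted p was 0.14 when WT replicate 3 was left out, 0.357 for KO replicate 1, 0.271 for KO replicate 2 and 0.33 for KO replicate 3 (edgeR). A fit with a term for Xist-bearing libraries gave 0.145. Exons of Gm26673 on the opposite strand cover 39.6% of the Kcna6 exons, and that gene held 110, 84 and 125 counts in WT and 101, 79 and 63 in KO, against 2596 Kcna6 counts in all. Whether reads were counted by strand is not given in the sources at hand, so the level of Kcna6 is uncertain to the extent that reads are shared.

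The 250 bases before the RefSeq start of Kcna6 are shown because it was the one member called. They are from RefSeq on GRCm38.p6, the same assembly as mm10 (chr6:126740675-126740924, minus strand, written 5′ to 3′), with CG pairs in capitals.
Kcna6: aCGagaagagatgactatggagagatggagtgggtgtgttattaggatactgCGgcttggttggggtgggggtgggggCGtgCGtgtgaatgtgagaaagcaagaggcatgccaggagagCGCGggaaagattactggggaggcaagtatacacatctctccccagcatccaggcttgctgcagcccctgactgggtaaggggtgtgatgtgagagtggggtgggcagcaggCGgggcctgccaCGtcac
This window held 8 CG pairs, against a median of 6 over 32851 such windows, and 58.8% of its bases were G or C. The tables held windows for 24 of the 35 members, 29 windows in all. The octamer ATGCAAAT, a motif bound by POU factors, was searched on both strands and was in 0 of the 29 member windows, as in 1.60% of all windows. The left part of the REST element, TTCAGCACC, was in 0 of 29 and in 0.301% of all windows. A TATAAA motif was in 1 window of 29, upstream of Scn2a, and in 12.4% of all windows. A GGGCGG box was in 9 of 29, including those of Hcn2, Kcnc1 and Kcnc4, and in 32.7% of all windows. None of the 4 motifs contains another. The Kcna6 window held none of them, which says only that these letters are not in it.

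Among the Kv1 genes, Kcna1 and Kcna2 were the other abundant members, and both form the juxtaparanodal channels of myelinated axons. Kcna1 stood at 22.6, 21.8 and 20.5 CPM in WT replicates 1 to 3 and 13.9, 12.7 and 17.5 CPM in KO replicates 1 to 3 (log2 fold change -0.56, SE 0.15, adjusted p = 0.141). Kcna2 stood at 44.6, 70.1 and 58.2 CPM in WT and 36.5, 39.0 and 38.1 CPM in KO (-0.61, SE 0.16, adjusted p = 0.142). Neither overlapped between the groups, and neither passed. Kcna1 is the neighbour of Kcna6 on chromosome 6, 61.9 kb away. Per kb of exon, Kcna2, Kcna6 and Kcna1 were the highest Kv genes by WT mean, at 4.84 ± 1.07, 4.74 ± 0.0790 and 4.52 ± 0.225 CPM per kb. These means did not differ beyond the spread between libraries. Within libraries, Kcna2 lay below the other named genes in WT replicate 1 and above them in WT replicates 2 and 3. Kcna6 lay above Kcna1 in each WT library, with the exon overlap given above as a limit on its level. In KO the order was Kcna2 (3.18 ± 0.104), Kcna1 (3.08 ± 0.531) and Kcna6 (2.57 ± 0.260 CPM per kb). Kcna4, which makes a fast-inactivating current, stood at 1.00, 2.13 and 1.93 CPM in WT and 1.56, 1.61 and 1.57 CPM in KO. Kcna5, found in heart and smooth muscle, stood at 2.51, 0.832 and 2.54 CPM in WT and 1.35, 1.39 and 0.918 CPM in KO. The groups overlapped for both. Kcna3, a channel of lymphocytes, was not tested, with 1, 2 and 3 counts in WT and 4, 7 and 13 counts in KO, where a count of 3 is the limit that a count of 0 allows.

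Kcna10 encodes a Kv channel of the hair cells of the ear. It stood at 1.06, 8.22 and 5.48 CPM in WT replicates 1 to 3 and 4.26, 3.87 and 3.40 CPM in KO (log2 fold change -0.36, SE 0.62, adjusted p = 0.78). WT replicate 1 was the lowest of the 6 libraries and WT replicate 2 the highest, the same extremes as in the mean of the hair cell markers (1.67 and 2.91 log2 CPM). The hair cell markers Otof and Ocm stood at 6.08 and 2.45 CPM in WT replicate 1 and at 20.1 and 18.4 CPM in WT replicate 2. Not every marker of the list had these extremes. Cib2 was highest in WT replicate 1, at 17.2 CPM, and Slc26a5 was lowest in WT replicate 2, at 0.312 CPM. Myo7a was lowest in WT replicate 1, but its highest library was KO replicate 3, at 25.97 CPM against 24.2 CPM in WT replicate 2.

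**Figure D3:**
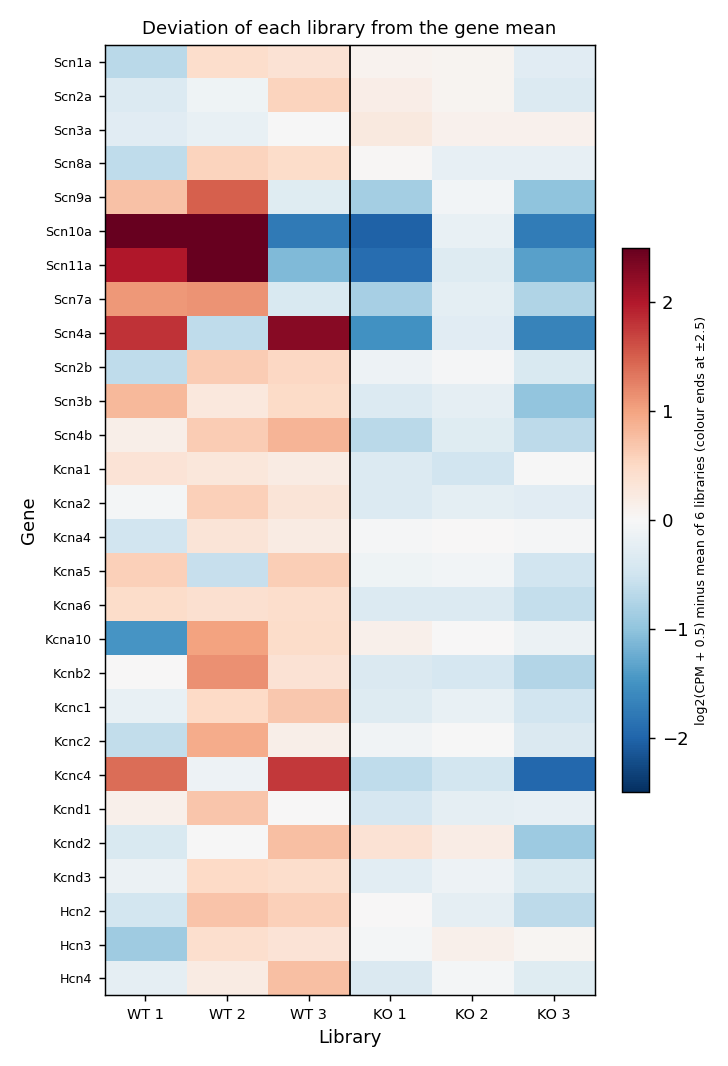
Deviation of each library (columns) from the mean of the 6 libraries for 28 tested genes (rows), on the log2(CPM + 0.5) scale, red above and blue below, with colours ending at ±2.5. Scn10a and Scn11a are red in WT replicates 1 and 2 only, Scn4a and Kcnc4 in WT replicates 1 and 3, and Kcna10 is blue in WT replicate 1.

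Of the sodium channel alpha subunits, the main central and fast-firing forms Scn1a, Scn2a, Scn3a and Scn8a did not separate lower in KO. Scn1a stood at 16.1, 35.3 and 33.6 CPM in WT replicates 1 to 3 and 27.7, 27.4 and 21.3 CPM in KO replicates 1 to 3 (log2 fold change -0.15, SE 0.30, adjusted p = 0.805). Scn8a, the main channel of mature nodes of Ranvier, stood at 10.5, 24.6 and 22.9 CPM in WT and 16.8, 14.4 and 14.2 CPM in KO (-0.36, SE 0.31, adjusted p = 0.553). Scn2a, the form of unmyelinated axons and immature nodes, stood at 7.47, 8.79 and 14.3 CPM in WT and 10.9, 10 and 7.50 CPM in KO (-0.11, SE 0.28, adjusted p = 0.859). The groups overlapped for all 3 of these genes. For Scn2a, WT replicate 2 lay below KO replicates 1 and 2. WT replicate 1 was the lowest of the 6 libraries for all 3 genes. It was also lowest in the sum of 10 markers of brain cells outside the ear, such as oligodendrocytes, with 124 CPM. WT replicates 2 and 3 had 439 and 552 CPM and the KO libraries 210.3 to 277 CPM. The glial marker Mobp had this minimum, at 33.7 CPM in WT replicate 1 and 97.4 to 288 CPM elsewhere. The neuronal markers of the list did not. Camk2a was at 14.7 CPM in WT replicate 1 and 9.16 CPM in WT replicate 2. Gad1, Gad2 and Neurod6 were at 2.79, 2.01 and 1.34 CPM in WT replicate 1 and 2.16, 0.648 and 0.594 CPM in KO replicate 3. The part of brain cells in the sodium channel values was not tested. Scn3a, a form most abundant before birth, was the only one of 33 tested members with a fitted change above 0. It stood at 7.47, 7.96 and 9.08 CPM in WT and 10.9, 9.87 and 9.93 CPM in KO, where the fitted change was 0.33 (log2, SE 0.14, adjusted p = 0.263). Its groups did not overlap, and it did not pass the test. Scn1a, Scn2a, Scn3a, Scn7a and Scn9a lie together on chromosome 2.

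Scn10a and Scn11a had the largest fitted changes and the largest spread within WT. Both encode tetrodotoxin-resistant sodium channels of nociceptors, the pain-sensing neurons of sensory ganglia, and they are neighbours on chromosome 9 with 34.4 kb between them. Scn10a (ENSMUSG00000034533, 119608456 to 119719322, minus strand) held 221, 381 and 3 counts in WT replicates 1 to 3 and 1, 33 and 3 counts in KO replicates 1 to 3, which is 12.3, 19.8 and 0.152 CPM and 0.0434, 1.44 and 0.162 CPM. Scn11a (ENSMUSG00000034115, 119753759 to 119825456, minus strand) held 161, 285 and 12 counts in WT and 3, 32 and 8 counts in KO, or 8.98, 14.8 and 0.609 CPM and 0.130, 1.39 and 0.432 CPM. Both genes were high in WT replicates 1 and 2, intermediate in KO replicate 2 and low in the other 3 libraries, WT replicate 3 among them. Scn10a was near the counting floor in all 3 of these, and Scn11a in KO replicate 1 only. A count of 0 allows up to 3 reads, or 0.130 to 0.167 CPM. The groups overlapped, and the log2 fold changes of -4.25 (SE 1.55, adjusted p = 0.207) and -3.61 (SE 1.18, adjusted p = 0.178) did not pass. Scn9a, which encodes the threshold channel of nociceptors and sympathetic neurons, had the same highest libraries. It stood at 13.9, 24.2 and 6.55 CPM in WT and 4.34, 7.87 and 3.83 CPM in KO (-1.47, SE 0.50, adjusted p = 0.19).

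Markers of nociceptors moved with these genes. A list of 10, added after the values of Scn10a and Scn11a were seen, summed to 66.2, 101 and 23.1 CPM in WT replicates 1 to 3 and 18.03, 30.2 and 21.2 CPM in KO replicates 1 to 3. The heat receptor Trpv1 held 55, 52 and 8 counts in WT and 2, 6 and 3 counts in KO, and the nociceptor regulator Prdm12 held 41, 129 and 6 counts in WT and 2, 17 and 6 counts in KO. Mrgprd was at 0 counts in KO replicates 1 and 3. The intermediate filament Prph marks small sensory neurons and is also 1 of the 14 neuron markers used above. It stood at 63.2, 70.1 and 8.93 CPM in WT and 6.43, 17.1 and 4.53 CPM in KO. All of them were highest in WT replicates 1 and 2. Their part in the values of Scn9a, Scn10a and Scn11a was not tested.

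The window before the start of Scn11a is shown because this gene had one of the widest ranges across the libraries. It has 250 bases from RefSeq on GRCm38.p6, minus strand, 5′ to 3′, with CG pairs in capitals (chr9:119825457-119825706).
Scn11a: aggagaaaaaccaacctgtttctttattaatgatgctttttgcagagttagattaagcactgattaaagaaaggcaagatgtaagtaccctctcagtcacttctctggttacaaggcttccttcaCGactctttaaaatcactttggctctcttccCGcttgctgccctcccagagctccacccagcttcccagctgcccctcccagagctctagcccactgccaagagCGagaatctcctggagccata
It had 3 CG pairs and 48.0% G or C, and held none of the 4 searched motifs. The member windows ranged from 0 CG pairs (Kcna10) to 31 (Kcna3).

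The make-up of the sodium channel alpha transcripts differed between the WT libraries, with WT replicate 3 near the KO libraries. Per kb of exon, Scn9a, Scn10a and Scn11a together held 33.2%, 41.4% and 6.18% of the alpha subunit level across WT replicates 1 to 3, and 5.45%, 13.5% and 6.87% across the KO replicates. Scn1a, Scn2a, Scn3a and Scn8a together held 26.3%, 36.3% and 61.6% in WT and 78.3%, 64.8% and 73.2% in KO. WT replicate 3 lay nearer to the KO libraries than to the other WT libraries in both shares. The groups overlapped in the nociceptor share and did not overlap in the other. Scn1a ranked first per kb in both groups, at 2.54 ± 0.955 CPM per kb for WT and 2.28 ± 0.325 for KO, although Scn7a (2.52 ± 1.22) did not differ from it beyond the spread in WT. The ranks below differed, with Scn11a and Scn10a next in WT (1.37 ± 1.20 and 1.35 ± 1.25 CPM per kb) and last in KO (0.110 and 0.0687). These shares are of all alpha subunits, the muscle isoforms included, and Scn4a alone held 10.5%, 1.11% and 17.97% in WT and 0.937% to 3.32% in KO. The summed alpha level, with the same genes, was 12.5, 16.6 and 10.3 CPM per kb in WT and 6.74, 7.64 and 5.73 CPM per kb in KO.

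**Figure D4:**
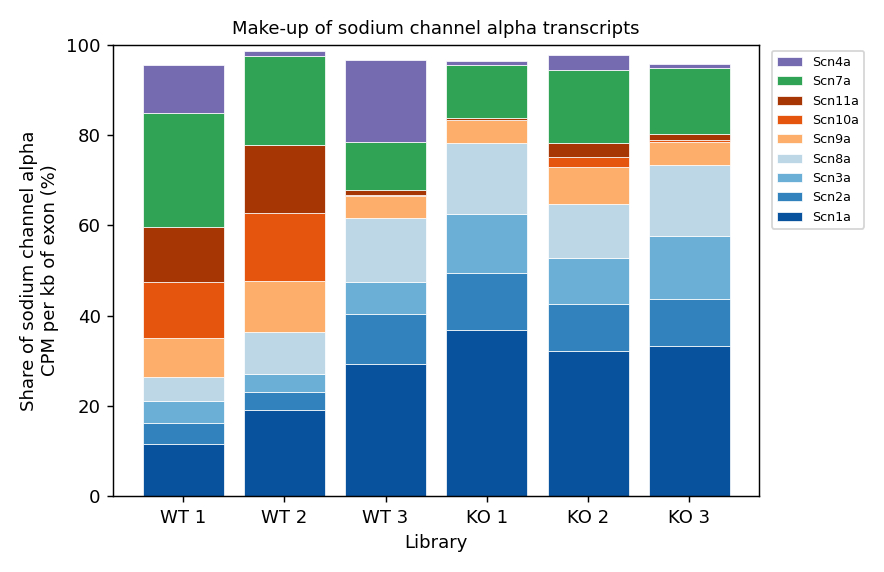
Share of 9 sodium channel alpha genes in the summed alpha subunit level of a library (vertical axis, percent of CPM per kb of exon), one stacked bar per library. The orange to brown segments (Scn9a, Scn10a, Scn11a) reach 33.2% for WT replicate 1 and 41.4% for WT replicate 2, and stay between 5.45% and 13.5% elsewhere.

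Scn7a encodes Nax, a sodium channel relative that senses sodium concentration and is found in glia, Schwann cells included. It stood at 23.3, 24.1 and 8.12 CPM in WT replicates 1 to 3 and 5.78, 9.003 and 6.15 CPM in KO (log2 fold change -1.40, SE 0.42, adjusted p = 0.166). The groups overlapped, with WT replicate 3 among the KO libraries. It was high in WT replicates 1 and 2, as Scn10a was. The Schwann cell marker mean was 6.37, 7.06 and 6.95 log2 CPM in WT replicates 1 to 3, and 5.92 to 6.05 in KO.

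The muscle isoforms were set apart from the nerve channels. Scn4a encodes the sodium channel of skeletal muscle, and Kcna7 a Kv channel of muscle. Scn4a stood at 9.26, 1.301 and 13.0 CPM in WT replicates 1 to 3 and 0.478, 1.78 and 0.378 CPM in KO (log2 fold change -3.13, SE 0.93, adjusted p = 0.163). Kcna7 was not tested, and it held 30, 3 and 63 counts in WT and 3, 7 and 5 counts in KO. Both were high in WT replicates 1 and 3, the libraries with 7132 and 11207 CPM of skeletal muscle markers. With WT replicate 2 left out, which had the lowest muscle marker sum in WT, 4 members were called lower, namely Kcna6, Kcna7, Kcnc4 and Scn4a, against 2.37% of all genes called lower and 1.41% higher in that fit. With the muscle isoforms left aside, 31 members were tested, 30 had fitted changes below 0 and the median was -0.61.

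Of the 4 beta subunits, 3 had every KO library below every WT library, where 12.7% of all genes tested did so. The median log2 fold change of the 4 was -0.79. Scn4b, which supplies the blocking particle of resurgent sodium current, stood at 30.1, 42.9 and 49.4 CPM in WT replicates 1 to 3 and 16.9, 21.96 and 17.3 CPM in KO replicates 1 to 3. Every KO library lay below every WT library, and the change of -1.12 (log2, SE 0.21) came close to the threshold without passing it (adjusted p = 0.0757, edgeR). Scn3b stood at 24.9, 17.0 and 19.7 CPM in WT and 10.9, 11.8 and 6.75 CPM in KO (-1.06, SE 0.25, adjusted p = 0.12). Scn3b did not overlap between the groups either. Scn2b, the neighbour of Scn4b at 8.32 kb on chromosome 9, did overlap, at 9.37, 23.2 and 21.5 CPM in WT and 13.6, 14.6 and 11.3 CPM in KO (-0.45, SE 0.33, adjusted p = 0.48). Scn3b was highest in WT replicate 1. That library held 273 counts of the noradrenaline enzyme Dbh, where the others held 0 to 11, and 128 counts of Th, where the others held 5 to 17. The 7 sympathetic neuron markers, a list added after the values of Scn3b were seen, summed to 47.7 CPM there and to 7.56 to 13.7 CPM in the other libraries, and their part in the Scn3b value was not tested.

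Kcnb2 belongs to the Kv2 genes, which encode delayed rectifiers of neuronal cell bodies. Kcnb2 stood at 8.03, 18.2 and 10.4 CPM in WT replicates 1 to 3 and 6.04, 5.83 and 4.59 CPM in KO (log2 fold change -1.15, SE 0.32, adjusted p = 0.148). Its groups did not overlap, and it did not pass.

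The Kv3 genes encode fast channels that let auditory neurons fire at high rates. Kcnc1 stood at 17.1, 27.5 and 31.4 CPM in WT replicates 1 to 3 and 15.3, 16.9 and 13.7 CPM in KO (log2 fold change -0.73, SE 0.23, adjusted p = 0.174), with WT replicate 1 just above the highest KO library. Kcnc2 stood at 4.63, 14.5 and 8.12 CPM in WT and 6.91, 7.26 and 5.56 CPM in KO (-0.46, SE 0.39, adjusted p = 0.543). WT replicate 1 was the lowest library for Kcnc2. Kcnc4, which is also a channel of skeletal muscle, went the other way within WT. It stood at 16.7, 5.51 and 21.9 CPM in WT and 3.74, 4.26 and 1.19 CPM in KO (-2.25, SE 0.62, adjusted p = 0.148). It was high in the 2 WT libraries rich in muscle markers, as Scn4a was, and WT replicate 2 lay just above the KO libraries.

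The Kv4 genes encode A-type channels that delay firing. The X-linked Kcnd1 stood at 6.58, 9.99 and 6.04 CPM in WT replicates 1 to 3 and 4.34, 5.00 and 5.13 CPM in KO (log2 fold change -0.64, SE 0.23, adjusted p = 0.201). Kcnd3 stood at 6.97, 11.03 and 10.7 CPM in WT and 6.30, 7.002 and 5.78 CPM in KO (-0.59, SE 0.21, adjusted p = 0.205). Kcnd2 stood at 5.07, 6.71 and 11.8 CPM in WT and 8.78, 7.70 and 3.35 CPM in KO (-0.25, SE 0.44, adjusted p = 0.787). Only Kcnd1 of these 3 had every KO library below every WT library, where 12.7% of all genes tested did so.

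All 4 HCN genes had fitted changes below 0, with a median of -0.61, and none passed. Per kb of exon Hcn2 was the highest in both groups (6.16 ± 2.44 in WT and 3.92 ± 0.923 CPM per kb in KO), and Hcn3 and Hcn4 did not differ beyond their spread in WT. Hcn2 stood at 10.8, 25.2 and 23.1 CPM in WT and 15.2, 12.9 and 9.39 CPM in KO (-0.65, SE 0.34, adjusted p = 0.339). The slow, cardiac pacemaker form Hcn4 stood at 6.69, 9.16 and 13.7 CPM in WT and 6.08, 7.61 and 6.32 CPM in KO (-0.56, SE 0.27, adjusted p = 0.312). The groups overlapped for Hcn2 and Hcn4. Hcn3, whose exons Pklr overlaps on the opposite strand over 17.1%, stood at 3.40, 9.10 and 8.63 CPM in WT and 6.43, 7.31 and 6.91 CPM in KO, and its fitted change was near 0 (-0.04, SE 0.36, adjusted p = 0.969). Pklr held 1736 counts in all libraries and Hcn3 held 850, so the level of Hcn3 is uncertain.

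**Figure D5:**
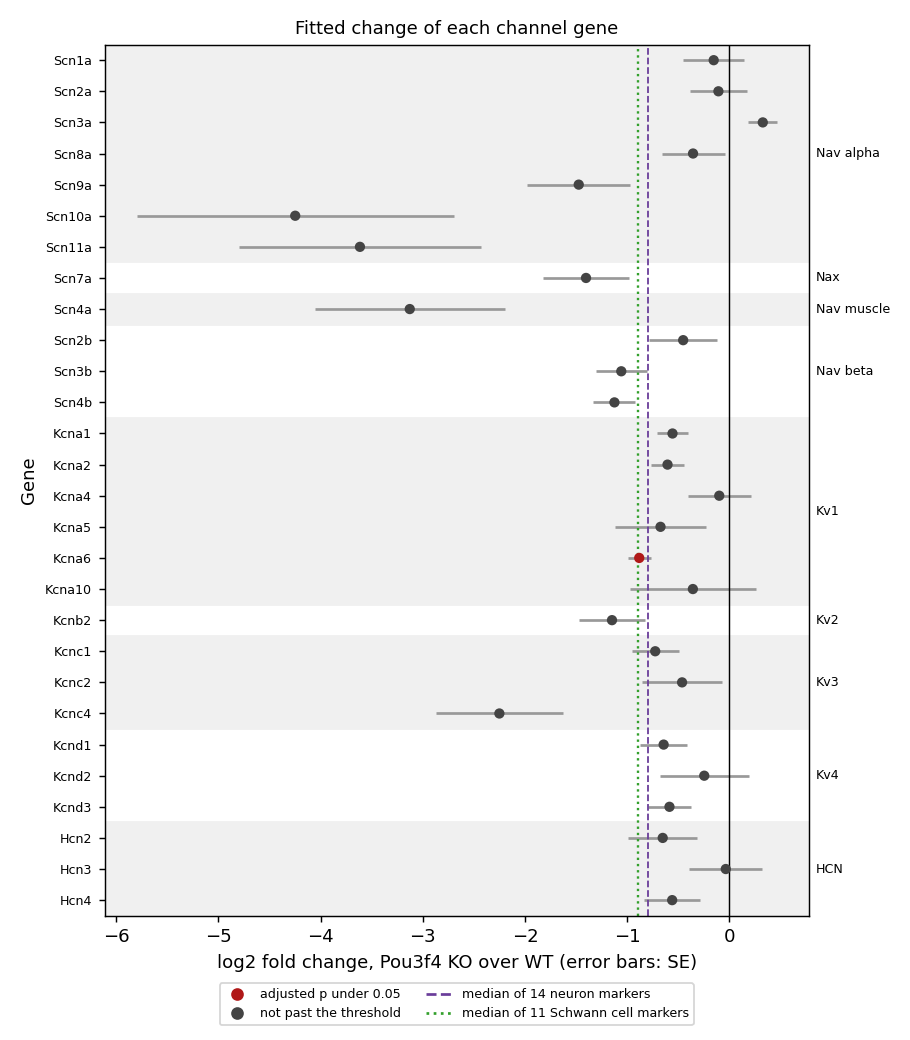
Fitted log2 fold change of KO over WT with its SE for 28 tested channel genes, grouped by family. Of these only Kcna6 (red, -0.88) passed the threshold, every point but that of Scn3a lies left of 0, and the dashed and dotted lines mark the medians of neuron (-0.80) and Schwann cell (-0.89) markers.

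The number of members called depended on WT replicate 1 and on the tool. Kcna6 alone was called by limma-voom, as by edgeR. Without WT replicate 1, 13 members were called lower by edgeR and 0 higher, against 5.46% of all genes lower and 3.60% higher in that fit. They included Hcn2, Kcna2, Kcna6, Kcnb2, Kcnc1, Kcnd3, Scn2b, Scn4b and Scn8a. With DESeq2 14 were lower and 0 higher, against 5.43% of all genes lower and 3.61% higher. These included Kcna1, Kcna2, Kcna6, Kcnb2, Kcnc1, Kcnc4, Scn3b, Scn4a, Scn4b, Scn7a and Scn9a. The sets shared 8 genes, 57.1% of the DESeq2 set and 61.5% of the set without WT replicate 1. Once WT replicate 3 or any single KO library was left out, edgeR called 0 of all genes in either direction, and so no member. In those fits 12 to 17 members had an unadjusted p under 0.05. The share of all genes at that level was not computed for them. Scn4b, for which the adjusted p was 0.00926 without WT replicate 1 and 5.47e-05 with DESeq2, was in both sets, and Scn10a and Scn11a were in neither.

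Partner genes of these channels also had mostly fitted changes below 0, with none past the threshold. Of 118 listed partners 105 were tested, 91 had a fitted change below 0 and the median was -0.43. By edgeR and by limma-voom 0 were called in either direction, and 40 had an unadjusted p under 0.05 in the lower direction and 1 in the higher (edgeR), against 10.9% and 8.71% of all genes. DESeq2 called 23 lower and 1 higher, against 5.43% and 3.61% of all genes. Scaffold and adhesion genes of the node and juxtaparanode had 21 of 22 fitted changes below 0 and a median of -0.49, and the groups did not overlap, with KO lower, for 12 of them, where 12.7% of all genes did so. Ank2, an ankyrin that ties channels to spectrin, averaged 128 ± 7.19 CPM in the WT libraries and 92.8 ± 2.15 in the KO libraries (-0.47, SE 0.08, adjusted p = 0.0616). Lgi1, a secreted ligand that tunes Kv1 channels, stood at 7.80 ± 1.13 and 4.01 ± 0.294 CPM (-0.96, adjusted p = 0.0747), and its glial relative Lgi4 at 25.0 ± 4.82 and 14.1 ± 1.09 CPM (-0.82, adjusted p = 0.0889).

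The other Kv families had 18 of 19 fitted changes below 0 and a median of -0.60. Kcnh6, of the ether-a-go-go family, had 2.03 ± 0.389 CPM in WT libraries and 0.864 ± 0.0800 in KO libraries (log2 fold change -1.23, adjusted p = 0.091). Among auxiliary subunits 11 of 15 lay below 0, with a median of -0.42. Amigo1, the partner of the Kv2 channels, stood at 24.4 ± 1.72 and 15.6 ± 0.175 CPM (-0.64, SE 0.10, adjusted p = 0.0611). The HCN partner Pex5l stood at 15.7 ± 3.43 and 10.1 ± 1.53 CPM (-0.63, adjusted p = 0.178), and the Kv1 beta subunit Kcnab1 at 17.2 ± 1.57 and 12.9 ± 1.94 CPM (-0.42, adjusted p = 0.205). Of the 4 fibroblast growth factor homologous factors, which bind sodium channel tails, Fgf13 stood at 42.2 ± 11.9 and 19.6 ± 3.06 CPM (-1.10, SE 0.22, adjusted p = 0.0912), while Fgf14 had a fitted change above 0 (0.32, adjusted p = 0.393).

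Potassium channels of other families had 23 of 29 fitted changes below 0 and a median of -0.35. Kcnk6, a background potassium channel, averaged 18.05 ± 0.677 CPM in the WT libraries and 29.0 ± 2.42 in the KO libraries (0.68, SE 0.11, adjusted p = 0.0599). It was the partner with the smallest adjusted p, and DESeq2 called it higher. Kcnk4, a mechanically gated background channel, stood at 1.91 ± 0.334 and 0.842 ± 0.149 CPM (-1.17, adjusted p = 0.109), and the inward rectifier Kcnj12 at 3.97 ± 0.662 and 2.06 ± 0.284 CPM (-0.95, adjusted p = 0.112). Voltage-gated calcium channel subunits had 15 of 16 below 0 and a median of -0.39. Cacna1b, the presynaptic N-type channel, stood at 8.30 ± 1.22 and 5.17 ± 0.796 CPM (-0.68, adjusted p = 0.151), and Cacna2d1 at 84.4 ± 20.1 and 53.6 ± 5.99 CPM (-0.66, adjusted p = 0.157). Cacnb1, the beta subunit of skeletal muscle, stood at 24.9 ± 12.6 and 10.4 ± 1.24 CPM (-1.27, adjusted p = 0.168), with 26.2, 11.7 and 36.8 CPM in WT replicates 1 to 3, the order of the muscle markers.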

How the data were processed

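mRNA libraries were made from TRIzol-extracted total RNA with a TruSeq Stranded mRNA kit, per the labels' protocols. Trimmomatic, HISAT2, Cufflinks, HTSeq and the mm10 build are listed, without roles, in the submitters' processing notes. Neither the strand setting nor the annotation release is given in the sources at hand. The deposited values are raw read counts for 55401 genes in 6 libraries.

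Genes were kept with filterByExpr (minimum count 10) and TMM-scaled. The genotypes were compared with edgeR 4.0.16 (glmQLFit, glmQLFTest) in R 4.3.3, and p-values were adjusted by Benjamini-Hochberg over all 19687 genes tested at a threshold of 0.05. SEs are the fold change over the root of F. The procedure was run on simulated counts with known genotype effects, drawn independently for each gene and library. They held no muscle, nociceptor or sex differences shared by genes of a library, so that run does not bear on these. Alternatives used DESeq2 1.42.0 and limma 3.58.1, other scalings and filters, a replicate block, an Xist term, no muscle markers, and each library left out. Exon lengths and overlaps came from GENCODE M21, whose coordinates matched all 35 members. Members were to be named with every library's values where a group mean reached 1 CPM, and the 3 partners of each list with the smallest p. Some members and partners are not reported here one by one. The members and lists were chosen with earlier results of these data known. The nociceptor and sympathetic lists, and any other gene named, were chosen after values were seen.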

Additional observations from a re-analysis of the deposited data

How the results depend on the processing

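Of 495 member values under 15 alternatives, 447 kept their direction and side of the threshold, 27 came to pass, 6 no longer passed (all Kcna6) and 15 changed direction, in 7 members that were not called in the reported fit. All genes called lower numbered 36 and higher 42 in the reported fit, 963 and 640 with DESeq2, 1 and 0 with the replicate block, and 0 and 0 with the Xist term. Leaving out 1 library gave 0 to 1093 lower and 0 to 721 higher. Members called lower numbered 1 in the reported fit, 14 with DESeq2, 0 with the replicate block, 0 with the Xist term and 0 to 13 without 1 library. Partner genes called lower numbered 0 in the reported fit, 23 with DESeq2 and 0 to 33 without 1 library. Those called higher numbered 0, 1 and 0 to 2. With edgeR, 18 members had an unadjusted p under 0.05 with the block and 18 with the Xist term. Whether these were the same members was not compared, and the share of all genes was not computed in these fits. Fitted log2 changes turned positive for Hcn3 (0.076 with limma-voom, 0.076 with the replicate block, -0.38 to 0.19 without 1 library, positive without WT replicate 2, WT replicate 3, KO replicate 1), Kcna10 (0.050 with limma-voom, -0.84 to 0.23 without 1 library, positive without WT replicate 2), Kcna4 (-0.37 to 0.10 without 1 library, positive without WT replicate 2, WT replicate 3), Kcnc2 (-0.79 to 0.046 without 1 library, positive without WT replicate 2), Kcnd2 (-0.50 to 0.17 without 1 library, positive without WT replicate 3, KO replicate 3), Scn1a (-0.45 to 0.037 without 1 library, positive without WT replicate 2) and Scn2a (-0.30 to 0.22 without 1 library, positive without WT replicate 3, KO replicate 3). The cause was not tested. Deviations of same-numbered libraries correlated at -0.133, -0.313 and -0.194, and no library correlated best with its own number, so the numbers were not taken as pairs. Depth limits Scn10a, Scn11a, Kcna3 and Kcna7, which are near the counting floor in some libraries.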
